A study of Mus musculus with 8 samples.

Results

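Vps13b encodes a very large protein of the VPS13 family. Few stretches of the genome as long as the gene held as many ALKBH5 peaks in the full-length lists. The lists of ALKBH5 lacking its C-terminal disordered region had almost none in the gene. The peaks described here are all those of the 4 peak lists that overlap chromosome 15 from 35371000 to 35932000 (GRCm39) by at least 1 bp, the interval given for Vps13b. They number 98 of 72953 peaks in all. The gene was chosen from these same lists for its excess of full-length peaks, so the peak numbers, covered bases, widths and enrichments below describe it, and no test between genotypes was made on them.

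ALKBH5 is an enzyme of the nucleus that removes N6-methyladenosine from RNA. The series asks, by its title, whether disordered parts of such enzymes limit where they act. The study used eCLIP, which fixes proteins to the RNA they touch with UV light, digests the RNA, immunoprecipitates the protein and sequences the RNA fragments that come with it. The cells were E14TG2a, an established line of mouse embryonic stem cells (mESC) grown with LIF and the inhibitors PD0325901 and CHIR99021, and nuclei were isolated after crosslinking. Both groups carried ALKBH5 as the endogenous protein, full-length (FL) in cells of genotype WT and without the C-terminal intrinsically disordered region (cIDR) in cells of genotype Alkbh5 del-cIDR. Each group had 2 immunoprecipitated replicates, with 1 peak list each, and the labels do not say whether the replicates were separate cultures or how many clones the del-cIDR cells came from. How many reads each list rests on is unknown. Nothing in the labels says whether the inputs served as control when peaks were called, so a peak can follow the amount of RNA as well as binding. Peak lists hold no expression values, so the labelled cell type could not be checked against marker genes.

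VPS13 proteins are long, rod-shaped molecules with a hydrophobic groove, and are thought to carry lipids from one membrane to another where organelles touch. VPS13B acts at the Golgi apparatus, where it binds the small GTPase RAB6, and it is needed for Golgi structure, for vesicle traffic and for formation of the acrosome of sperm. Loss of the human gene causes Cohen syndrome, a disorder of brain development, vision and neutrophil number. The mouse gene is transcribed toward increasing coordinates, so distances from the start of the interval run from the 5′ to the 3′ end. Its span of 561.001 kb is far longer than its mature mRNA, and most of the primary transcript is therefore intron.

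Full-length ALKBH5 had peaks along nearly the whole gene, and the del-cIDR form had peaks only close to its 3′ end. Full-length replicate 1 held 58 peaks in the gene and replicate 2 held 37, against 1 and 2 peaks in the del-cIDR replicates. Both full-length lists thus lay above both del-cIDR lists. The means were 47.5 ± 14.8 and 1.5 ± 0.707 peaks (SD, n = 2 each), a difference of 46 peaks. This exceeded the spread between replicates, but the gene was chosen for its excess of full-length peaks, so it is no test. Summed over replicates, 95 full-length peaks stood against 3 of del-cIDR.

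**Figure D1:**
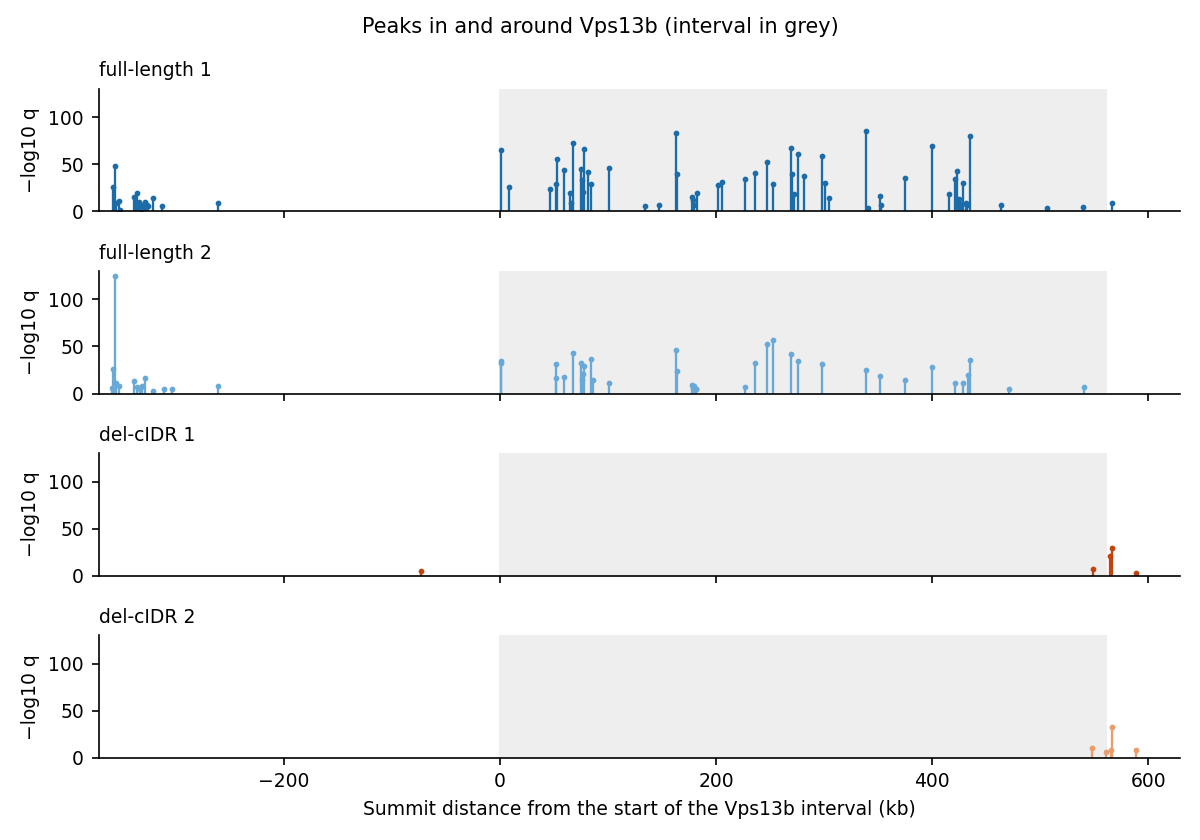
Peaks of each list from 371 kb before to 629 kb after the start of the Vps13b interval, which is shaded; each stem stands at a summit and its height is the deposited −log10 q of the peak. The 58 and 37 full-length peaks run along the shaded interval. The del-cIDR peaks stand near and beyond its right end, apart from a peak of del-cIDR replicate 1 to the left of the interval.

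To place these numbers, all numbered chromosomes, X and Y were cut into tiles of the same length as the gene, and the 3230 tiles with at least 4 summits over the lists were counted, of which 2 overlap the gene. Both full-length counts were above both del-cIDR counts in 24.1% of these tiles, and the reverse held in 34%, so the order of the lists alone is common. The size of the difference was less so. A full-length number at least 4 times the del-cIDR number (the latter taken as at least 3) was found in 6.1% of tiles, and a ratio as large as that of Vps13b in 0.031%, which is 1 tile. The median tile held 3 summits in full-length replicate 1 and 2 in replicate 2. As many summits as Vps13b were found in 9 tiles (0.279%) for replicate 1 and in 32 tiles (0.991%) for replicate 2. Low del-cIDR counts were frequent: 24.4% and 23.3% of tiles held no more del-cIDR summits than the gene, which by summit had 1 in each replicate. Among the tiles, a full-length number as high as that of Vps13b was thus less frequent than a del-cIDR number as low. These shares describe where the chosen gene lies and do not test it, since tiles take no account of genes or of how strongly they are transcribed.

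**Figure D2:**
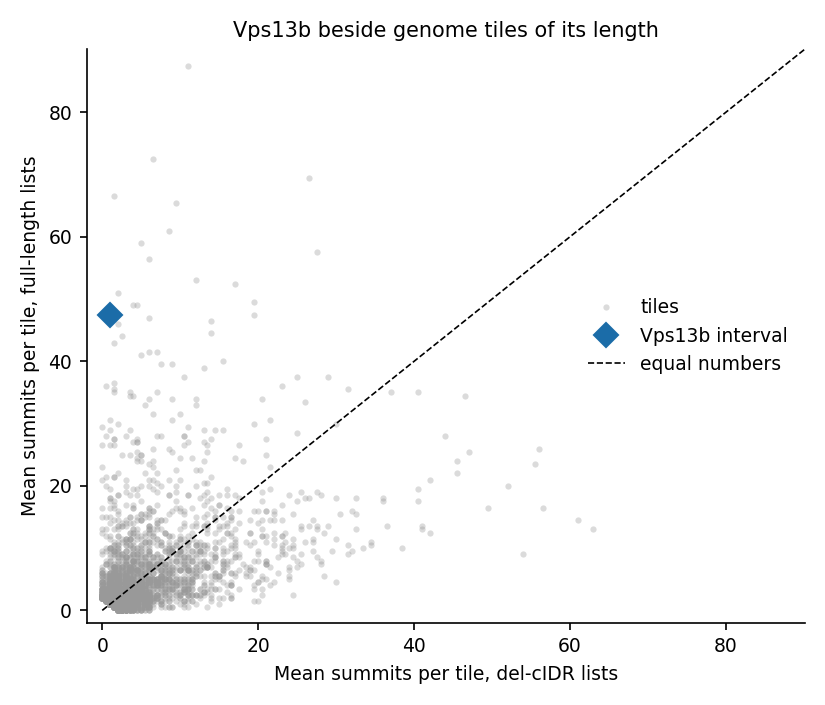
Mean number of summits per tile in the 2 del-cIDR lists (horizontal axis) and in the 2 full-length lists (vertical axis); each grey point is a tile of 561.001 kb, the diamond is the Vps13b interval and the dashed line marks equal numbers. The diamond stands at a mean of 47.5 full-length summits, at the left edge of the plot.

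The tiles most like the gene in their ratio lay on 6 chromosomes. Only the tile of chromosome 2 from 176.7 to 177.3 Mb had a larger ratio, with 77 and 56 full-length against 1 and 2 del-cIDR summits. Next below Vps13b were tiles of chromosome 4 from 145.3 to 145.9 Mb (44 and 42 against 1 and 2) and of chromosome 13 from 62.3 to 62.8 Mb (51 and 51 against 3 and 1). The rest of the first 10 were a further tile of chromosome 13, the others of chromosome 2, and single tiles of chromosomes 6, 10 and 17.

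Along the gene, full-length peaks occupied each of 10 equal bins in both replicates. From the 5′ end, the bins of 56.1 kb held 5, 11, 4, 6, 8, 4, 5, 12, 1 and 2 peaks in replicate 1 and 4, 9, 2, 5, 6, 1, 3, 5, 1 and 1 in replicate 2. Replicate 1 was as high as or higher than replicate 2 in each bin. The last 2 bins held few peaks, 3 in replicate 1 and 2 in replicate 2, and bin 6 of replicate 2 also held 1. The first 8 bins held 94.8% and 94.6% of the peaks. The fullest bin held 20.7% of the peaks of replicate 1 and 24.3% of those of replicate 2. Among the tiles with at least as many summits as the gene, cut into 10 bins in the same way, the median tile had summits in 7 bins in replicate 1 (9 tiles) and in 6 bins in replicate 2 (32 tiles), with 36.5% and 41.1% of its summits in the fullest bin. Summits in all 10 bins were found in 1 of the 9 and in 2 of the 32 tiles. By these counts the peaks of the gene were spread more evenly than those of most of these few tiles. The tiles were cut without regard to genes, whereas the interval follows 1 gene. Evenness can therefore not be called a trait of Vps13b from this comparison.

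**Figure D3:**
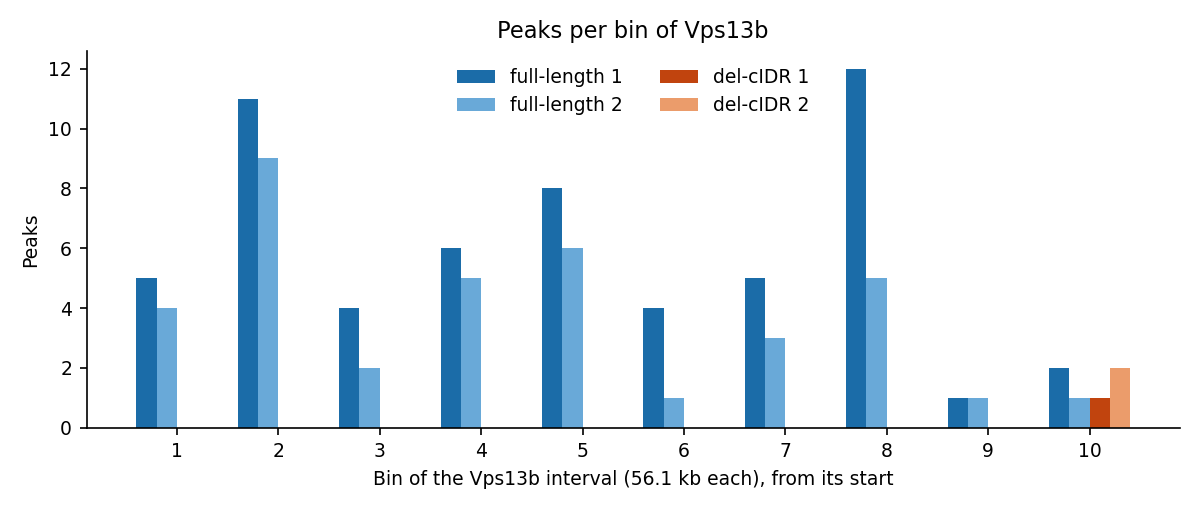
Number of peaks in each of 10 bins of the Vps13b interval (56.1 kb each, from the 5′ end) for the 4 lists; a del-cIDR peak that crosses the end of the interval is counted in the last bin. Full-length bars appear in all 10 bins, with 12 as the highest, and del-cIDR bars in the last one.

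Neighbouring summits stood a median of a few kilobases apart, at uneven distances, with some long stretches without a summit. The median distance between neighbouring summits was 4.20 kb in replicate 1 (quartiles 1.42 and 15.3 kb) and 7.15 kb in replicate 2 (quartiles 1.36 and 21.7 kb), a mean of 5.67 ± 2.09 kb (SD, n = 2). Distances of 5 kb or less made up 52.6% and 33.3% of all. The SD of the distances was 1.17 and 1.21 times their mean. Whether the summits lay closer together than randomly scattered ones would was not tested. Joining peaks that lay within 5 kb of each other left 28 groups in replicate 1 and 24 in replicate 2, of which 17 in each were a single peak, so the replicates differed less in the number of groups than in the number of peaks. On these joined peaks the median distance was 16.4 and 16.2 kb. The largest group of replicate 1 had 10 peaks between 421 and 435 kb from the start of the gene. That of replicate 2 had 5 peaks between 177 and 182 kb, where replicate 1 had 4. The longest stretch without a summit ran from 464 to 506 kb in replicate 1, which is 42.5 kb, and from 471 to 540 kb in replicate 2, which is 69.4 kb.

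Full-length peaks of the gene were mostly narrow. In replicate 1 the widths ran from 301 to 2736 bp with a median of 383.5 bp, and in replicate 2 from 243 to 1006 bp with a median of 295 bp. These medians were close to those of the whole lists, 379 and 291 bp. Peaks of 1 kb or wider were fewer than in the lists as a whole, with 1 in each replicate (1.72% and 2.70% of the peaks in the gene, against 11.5% and 6.05% of the lists). The del-cIDR peaks measured 300 bp in replicate 1 and 301 bp each in replicate 2, which is the minimum of those lists. The difference of the median widths, 38.75 bp, was within the spread of the full-length replicates (SD 62.6 bp), and its sign depended on them: it was 83 bp without replicate 2 and -5.5 bp without replicate 1.

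**Figure D4:**
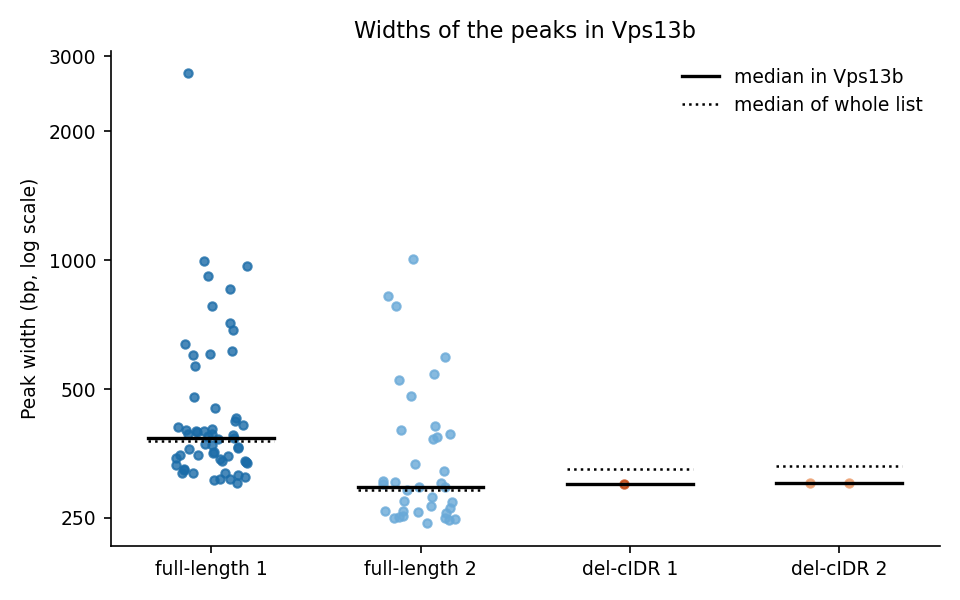
Width of each peak in Vps13b by list, on a log scale; solid lines are the medians in the gene and dotted lines those of the whole lists. Apart from the peak of 2736 bp in full-length replicate 1, the widths stay at or below 1006 bp, and the full-length medians of 383.5 and 295 bp lie beside those of their lists.

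Peaks covered 28043 bases of the gene in full-length replicate 1 and 13605 bases in replicate 2, against 300 and 395 bases in the del-cIDR replicates. As shares of the interval these are 5.00%, 2.43%, 0.0535% and 0.0704%. The means were 20824 ± 10209 and 347.5 ± 67.2 bases (SD, n = 2 each). The difference of 20476.5 bases was larger than the spread, which the choice of the gene favoured. The size of this difference rested on replicate 1, without which it was 13257.5 bases. The 2 full-length lists shared 12396 of the 29252 bases covered by either, a Jaccard index of 0.424. No base of the gene was covered in both a full-length and a del-cIDR list. How many bases these share over the whole lists was not counted.

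Peaks of the gene were of above-average strength within their lists without being among the strongest. The fold enrichments and −log10 q values given here are the authors' own for each peak. In replicate 1, fold enrichment ran from 3.19 to 14.2 with a median of 6.34, and 55 of the 58 peaks were above the median of the list (3.80). In replicate 2 it ran from 2.54 to 13.5 with a median of 4.94, and 30 of the 37 peaks were above the median of the list (3.60). By −log10 q, 44 of 58 and 26 of 37 peaks were above the list medians of 12.1 and 11.5. The best 10% of the lists by −log10 q held 4 of the 58 peaks in replicate 1 and none of the 37 in replicate 2, whose best peak ranked 1850 of 16636.

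The 3 peaks of each replicate with the highest −log10 q lay between 163 and 435 kb into the gene. In replicate 1 the highest −log10 q, 85.3, belonged to a peak of 919 bp from 35709308 to 35710226, 339 kb into the gene. It was matched in replicate 2 by a peak of 826 bp with a −log10 q of 24.8. The next, from 35533495 to 35533856 (163 kb into the gene, −log10 q 82.8, 12.8-fold), was also the third of replicate 2, where it ran from 35533509 to 35533803 with a −log10 q of 46.6 and 9.60-fold enrichment. The third of replicate 1 was the widest peak of the gene, 2736 bp from 35803452 to 35806187, with 14.2-fold enrichment. Replicate 2 split it into peaks of 783 and 1006 bp, the latter with its summit 3 bp from that of replicate 1. The other wide peaks of replicate 1 measured 995 bp, 66.1 kb into the gene and without a counterpart in replicate 2, and 971 bp, 181 kb into the gene. In replicate 2 the highest −log10 q values were 56.8 and 52.5, at 35623768 to 35624168 and at 35617801 to 35618182, 6.02 kb apart by summit. Both had a partner in replicate 1, with −log10 q values of 29.3 and 52.7.

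Nearly all peaks of full-length replicate 2 were also in replicate 1, and the converse held for just over 50%. Of the 37 peaks of replicate 2, 34 (91.9%) overlapped a peak of replicate 1, and of the 58 of replicate 1, 32 (55.2%) overlapped a peak of replicate 2. Over the whole lists these shares were 76.2% and 54.0%. The overlaps formed 35 pairs, since some peaks were split in the other list. Their summits were a median of 47 bp apart, and 28 of the 35 pairs were within 100 bp. The peak of replicate 1 was the wider in 32 pairs, and that of replicate 2 lay entirely inside it in 27. The order of the pairs by −log10 q was similar in the replicates (Spearman 0.611 over 35 pairs, which all lie in 1 transcript and of which several share a peak), and their order by fold enrichment less so (0.312). The 26 peaks of replicate 1 without a partner had a lower median −log10 q than the 32 with one, 13.7 against 40.0. The 3 such peaks of replicate 2 lay 85.8, 471 and 540 kb into the gene, the last of them beginning 153 bp past the end of a peak of replicate 1.

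Merging the lists gave 62 regions in the gene. Both full-length lists and no del-cIDR list held 31 of them, replicate 1 alone 26 and replicate 2 alone 3. The 31 regions were 306 to 2736 bp wide with a median of 413 bp, and lay from 0.728 to 432 kb into the gene in 8 of its 10 bins. No region held a peak in all 4 lists, and the share of such regions over the whole lists was not counted. The remaining regions were 1 held by both del-cIDR lists and 1 held by del-cIDR replicate 2 alone.

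The del-cIDR peaks lay where full-length peaks were absent. Both del-cIDR lists had a peak at nearly the same place, from 35919022 to 35919321 in replicate 1 and from 35919021 to 35919321 in replicate 2, 548 kb into the gene, with summits 12.7 and 12.8 kb before the end of the interval. It had 5.52-fold enrichment with a −log10 q of 7.08 in replicate 1 and 6.87-fold with 10.9 in replicate 2, ranks 11964 of 17584 and 8567 of 18841. The nearest full-length summit was 8.12 kb from that of replicate 2. The other peak, in replicate 2 alone, ran from 35931907 to 35932207 with 3.37-fold enrichment and crossed the end of the interval, with 94 of its 301 bases inside and its summit outside. None of the 3 del-cIDR peaks overlapped a full-length peak. The share of del-cIDR peaks that do so over the whole lists was not counted, so this cannot be called particular to the gene. Since the depth is unknown, the lack of listed del-cIDR peaks elsewhere in the gene does not show a lack of binding there.

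The last full-length peaks stopped shortly before this place. They ran from 35910496 to 35910810 in replicate 1 and from 35910963 to 35911221 in replicate 2, with −log10 q values of 4.72 and 6.69, and did not overlap each other. Past them, 21.4 and 20.9 kb of the interval held no full-length summit. Just outside the interval, the first full-length peak of replicate 1 began 5.05 kb after its end with 1.97-fold enrichment, and replicate 2 had none for 508 kb. At the 5′ end the first peaks began 0.728 and 0.812 kb into the interval, with −log10 q values of 65.5 and 31.9. The last full-length peaks before the gene ended 260.3 and 260.4 kb upstream of it.

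The 439 kb of the window from 35 to 36 Mb that lie outside Vps13b also favoured full-length, with 20 and 15 peaks against 4 and 3 in the del-cIDR lists. The means were 17.5 ± 3.54 and 3.5 ± 0.707 (SD, n = 2 each), a 5-fold ratio. Per 100 kb this is 4.56 and 3.42 full-length peaks, against 10.3 and 6.60 in the gene, and 0.911 and 0.683 del-cIDR peaks, against 0.178 and 0.357 in the gene. The full-length peaks of this setting were not spread like those of Vps13b. All but 1 in replicate 2 and all but 2 in replicate 1 formed a dense cluster far upstream, 14 summits within 55.7 kb in replicate 2 and 18 within 45.3 kb in replicate 1. It began 358 kb before the gene and held the strongest peak of replicate 2 in the window (26.4-fold, −log10 q 124). Neighbouring full-length summits upstream of the gene were a median of 1.6 kb apart in replicate 1 and 2.8 kb in replicate 2. These distances were shorter than the medians in the gene, 4.20 and 7.15 kb. In replicate 1, peaks outside the gene reached at most 9.24-fold and a −log10 q of 47.9, against 14.2-fold and 85.3 inside it.

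The del-cIDR peaks of this setting were mostly just past the 3′ end of the gene. Each del-cIDR list had 3 peaks that began 3.18 to 27.8 kb after the end of the interval. Those at 35937031 to 35937398 in replicate 1 and 35937022 to 35937397 in replicate 2 had −log10 q values of 29.0 and 32.4, the highest del-cIDR values of the window, and overlapped the first peak of full-length replicate 1 past the gene. Those at 35959802 and 35959801 were likewise in both del-cIDR lists and overlapped no full-length peak. The only del-cIDR peak upstream was in replicate 1, ending 72.8 kb before the gene.

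Neighbouring genes limit what can be assigned at the ends of the interval. In the RefSeq gene table used here for names, whose coordinates belong to the older build GRCm38.p6 and were not used, the noncoding RNA LOC115488525 overlaps the start of Vps13b and Cox6c, which encodes a subunit of cytochrome c oxidase, follows it directly. Osr2, a zinc-finger transcription factor gene, lies before it. Listed within the gene are the microRNAs Mir599 and Mir875, the small nucleolar RNA Gm24771, the noncoding RNA Gm41292 and the pseudogenes Gm52228 and Gm18994. The interval itself was taken as Vps13b without an annotation of the build of the peaks. The deposited peaks carry no strand, so peaks of these genes cannot be told apart from those of Vps13b by strand, and which peaks lie in exons or introns was not analysed here.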

How the data were processed

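The tools named in the submitters' processing notes are MACS2, STAR, cutadapt and UMI-tools, and the build is GRCm39. Their versions, settings and filters are not stated there. The authors deposited 1 peak list per immunoprecipitate. Each deposited peak has a position, −log10 p-value and −log10 q-value, a score near 10 times the −log10 q, a ratio to the caller's background (fold enrichment) and a summit given as a distance from the peak start. The lists named wt were taken as full-length by the genotype WT, and those named KI as del-cIDR, the only other genotype. The inputs were not analysed here.

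All deposited peaks were used, in Python 3.11.15 with pandas 2.3.3, NumPy 2.4.6 and SciPy 1.17.1. Peaks were compared by an overlap of at least 1 bp. Values are means with the SD of 2 replicates. The counting steps were checked on simulated peaks. The gene, its interval and the settings were chosen with earlier results of these data known. Peaks described singly are, in each full-length list, the 3 with the highest −log10 q and the 3 widest, and all del-cIDR peaks; the last and first peaks around the ends and peaks of the window were added to these. Of 10 tiles named by ratio, those with fewer than 3 del-cIDR summits were ranked with 3. Genes of like function, exons and sequence were not analysed here, since the reference tables are on another build.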

Additional observations from a re-analysis of the deposited data

How the results depend on the processing

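The differences in peak number and covered bases, and the median summit distance, moved by at most 1 replicate SD under most alternatives. These were limits on −log10 q (5 or more) and fold enrichment (4 or more), and lists cut by rank to 16636 peaks each. Others were joining of peaks, counting by summit and an interval shortened by 10 kb at both ends. Overlap shares were also taken with an overlap of at least 50%. Each replicate was also left out, but with 2 per group this cannot move a mean by more than 1 SD, so it was no check. Joining peaks within 5 kb lowered the difference in peak number from 46 to 24.5 and raised the median distance of full-length summits from 5.67 to 16.3 kb, and a fold enrichment of at least 4 raised that distance to 8.07 kb. Joining within 5 kb also turned the width difference to -1179.5 bp, since it joined the del-cIDR peak at the end of the gene to those past the end and raised the median of del-cIDR replicate 2 to 2896 bp. With a replicate left out, the difference in peak number was 35.5 to 56.5, that in covered bases 13257.5 to 27695.5, that in median width -5.5 to 83 bp and the median distance 4.20 to 7.15 kb. The mean of the 2 full-length overlap shares was 73.5%, and 68.9% to 75.2% under the alternatives. As these shares are the 2 directions of 1 comparison, no replicate SD applies to them. The share of del-cIDR peaks overlapped by a full-length peak was 0 throughout, on 3 peaks or fewer. The alternatives run for this share only removed peaks or asked for more overlap. It could therefore not rise above 0, and this was no check. No model was fitted, so the replicate numbers, which the genotypes share, were not used as a block. Read numbers are unknown, so a missing peak can reflect depth, and 2 replicates limit every comparison.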
